A study of Mus musculus with 6 samples.

Results

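The genes described here are 10 genes of regulatory T cell (Treg) identity and suppression: Foxp3, Il2ra, Ctla4, Ikzf2, Icos, Tigit, Lag3, Il10, Entpd1 and Nt5e. They were chosen by symbol, and all 10 were found among the 35434 gene symbols of the expression table. The samples were lesional skin of psoriasis mice, 3 libraries from mice given Tregs treated with lenvatinib (Lenv-Treg) and 3 from mice given control Tregs (Ctrl-Treg). Every mouse in both groups thus carried the disease and had received transferred Tregs. Lenvatinib is an inhibitor of receptor tyrosine kinases, among them the VEGF and FGF receptors. The labels used here give no mouse strain, age, disease inducer, cell dose or time of collection, and leave unsaid whether each library is a mouse of its own; p-values here reflect the spread among 3 libraries, which may be technical. Transferred and resident Tregs use the same genes, so the values cannot tell them apart.

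Tregs are CD4 T cells that restrain immune responses and that depend on the transcription factor FOXP3. They take up IL-2 through a receptor that contains CD25 (Il2ra), compete for costimulatory ligands through CTLA-4, carry the receptors ICOS, TIGIT and LAG-3, release IL-10, and degrade extracellular ATP to adenosine through CD39 (Entpd1) and CD73 (Nt5e). In mouse skin Tregs gather around hair follicles. Most of these genes are not exclusive to Tregs: activated T cells, natural killer cells, macrophages, Langerhans cells, endothelium or fibroblasts express one or more of them. In bulk tissue, fewer cells of a type and less RNA per cell cannot be told apart.

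Depth was close to equal, between 39606294 and 40248462 assigned reads in Lenv-Treg libraries and between 38704536 and 40247457 in Ctrl-Treg libraries, as recovered from the expression values. Values are FPKM, fragments scaled to gene length and to the assigned fragments of the library, so levels of different genes are compared per length. Of 13945 genes tested with limma on log2(FPKM + 1), 1532 were higher and 4289 lower in Lenv-Treg at a Benjamini-Hochberg adjusted p of at most 0.05. The median difference over the tested genes was -0.17. It was 0.00 after median-of-ratios scaling (2417 higher, 2417 lower) and -0.44 after rescaling to TPM (947 higher, 7970 lower), so values under these scalings are given where they change a member's call or sign. The skin keratin gene Krt14 was at 611 FPKM or more in every library, and the T cell genes Cd3e and Cd4 were found in every library at 0.819 to 3.42 FPKM. All 7 neutrophil markers rose, and their summed level ran from 38100 to 53800 FPKM in Lenv-Treg and from 51.0 to 195 FPKM in Ctrl-Treg, a sum made almost wholly by S100a8 and S100a9, alarmin genes that keratinocytes also express (means of 21900 and 24400 FPKM in Lenv-Treg, against 46.9 and 56.3 FPKM in Ctrl-Treg). The other 5 averaged between 4.22 FPKM (Ly6g, which passed the filter on low values only through Lenv-Treg) and 256 FPKM (Retnlg) in Lenv-Treg, against 0.0632 and 1.89 FPKM for these 2 genes in Ctrl-Treg.

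Of the 10 members, 8 passed the filter on low values (FPKM of at least 0.5 in at least 3 libraries); Foxp3 and Tigit did not. Among the 8 tested members, Icos and Entpd1 rose and Nt5e fell in Lenv-Treg. Over all tested genes 41.7% were called, 11.0% higher and 30.8% lower. The libraries of the groups did not overlap for Icos, Entpd1 and Nt5e among the 8, and for 55.4% of all tested genes (14.4% higher, 41.0% lower). The median difference of the 8 members was 0.08, or 0.17 after median-of-ratios scaling and -0.07 after rescaling to TPM. Tigit, outside the filter, was higher in all 3 Lenv-Treg libraries than in any Ctrl-Treg library. Il2ra, Ctla4, Ikzf2, Lag3 and Il10 did not pass the threshold.

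The stretches of 250 bases before the transcription start are shown for the lineage gene Foxp3 and for the members whose groups did not overlap, where the RefSeq promoter table had an entry (it matched 6 of the 10 members). They are from RefSeq, build GRCm38.p6, whereas the expression values were made on GRCm39. Each is written 5′ to 3′ on the gene's strand, and capitals mark letters that match 1 of 6 short motifs on either strand: AP-1 (TGANTCA), STAT (TTCNNNGAA), forkhead (TGTTTAC), RUNX (TGTGGT), CRE (TGACGTCA) and NFAT (GGAAAA).
Foxp3 start 1, chrX:7579426-7579675, plus strand: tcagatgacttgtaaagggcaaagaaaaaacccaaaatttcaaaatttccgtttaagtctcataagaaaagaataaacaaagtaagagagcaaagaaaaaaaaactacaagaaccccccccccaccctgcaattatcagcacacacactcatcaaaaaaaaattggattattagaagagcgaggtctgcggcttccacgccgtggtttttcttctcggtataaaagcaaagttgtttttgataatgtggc
Foxp3 start 2, chrX:7580233-7580482, plus strand: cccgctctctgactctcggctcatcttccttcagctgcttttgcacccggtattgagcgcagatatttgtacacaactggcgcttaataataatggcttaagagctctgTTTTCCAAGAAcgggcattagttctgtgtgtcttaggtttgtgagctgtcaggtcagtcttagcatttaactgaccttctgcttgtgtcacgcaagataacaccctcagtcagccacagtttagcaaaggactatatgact
Tigit, chr16:43664185-43664434, minus strand: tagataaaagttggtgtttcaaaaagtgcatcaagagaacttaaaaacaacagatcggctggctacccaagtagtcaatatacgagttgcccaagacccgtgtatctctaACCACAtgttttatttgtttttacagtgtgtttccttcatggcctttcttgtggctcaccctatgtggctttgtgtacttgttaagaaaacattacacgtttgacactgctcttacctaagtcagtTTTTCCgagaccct
Entpd1 start 1, chr19:40612116-40612365, plus strand: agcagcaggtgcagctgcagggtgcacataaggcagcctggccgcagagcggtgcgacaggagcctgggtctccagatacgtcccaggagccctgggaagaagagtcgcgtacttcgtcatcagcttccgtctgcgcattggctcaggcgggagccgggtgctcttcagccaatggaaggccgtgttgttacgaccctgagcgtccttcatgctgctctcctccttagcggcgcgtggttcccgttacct
Entpd1 start 2, chr19:40659520-40659769, plus strand: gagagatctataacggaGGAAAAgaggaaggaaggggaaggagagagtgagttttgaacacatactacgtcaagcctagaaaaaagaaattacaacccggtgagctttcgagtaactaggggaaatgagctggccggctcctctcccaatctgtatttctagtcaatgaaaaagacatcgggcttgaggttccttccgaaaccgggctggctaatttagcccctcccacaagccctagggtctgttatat
Nt5e, chr9:88327359-88327608, plus strand: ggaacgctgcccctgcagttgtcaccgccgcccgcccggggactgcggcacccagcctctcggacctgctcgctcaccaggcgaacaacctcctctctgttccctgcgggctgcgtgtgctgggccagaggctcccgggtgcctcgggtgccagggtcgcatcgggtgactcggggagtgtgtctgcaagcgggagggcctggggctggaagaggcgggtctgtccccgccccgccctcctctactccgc

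Only a few of these letters matched. Before the second Foxp3 start a STAT match began 139 bases upstream, and it overlapped an NFAT match that began 141 bases upstream. The Tigit promoter held a RUNX match 140 bases and an NFAT match 14 bases before the start, and the second Entpd1 promoter held an NFAT match 233 bases before it. None of the 6 motifs matched the first Foxp3, the first Entpd1 or the Nt5e stretch. Of 32851 promoter stretches of this length, 7.02% held the STAT, 14.0% the RUNX, 20.4% the NFAT, 6.75% the AP-1, 3.17% the forkhead and 1.55% the CRE letters. A match is a description and not a site, and no match says only that these letters are not in the window. Base composition differed between the genes: G and C made up 72.0% of the Nt5e stretch and 62.4% and 47.2% of the Entpd1 stretches, 40.0% of the Tigit stretch and 37.6% and 46.0% of the Foxp3 stretches, against a median of 52.4% over all promoters.

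Foxp3, the transcription factor that defines the Treg lineage, was present at a low level in every library. It measured 0.248, 0.291 and 0.264 FPKM in Lenv-Treg libraries, from 39, 46 and 41 reads, against 0.285, 0.130 and 0.164 FPKM in Ctrl-Treg libraries, from 45, 20 and 25 reads. The groups overlapped, because Ctrl-Treg replicate 1 was as high as the Lenv-Treg libraries. The 126 reads in Lenv-Treg and 90 in Ctrl-Treg gave a ratio of 1.38, with an exact 95% interval of 1.04 to 1.83 that covers counting error only and not the spread between samples. An exact two-sided permutation test gave p = 0.3, where 0.1 is the smallest p that 3 against 3 samples allow. Limma without a filter on low values gave an adjusted p of 0.279, and voom on recovered reads gave 0.297.

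Ikzf2 encodes Helios, an Ikaros family factor found in many Tregs. It was 0.739, 0.468 and 0.546 FPKM in Lenv-Treg libraries and 0.760, 0.664 and 0.566 FPKM in Ctrl-Treg libraries. The ranges largely coincided, and limma found no call (log2 difference -0.07, SE 0.10, adjusted p = 0.585), with the sign turning to 0.01 after median-of-ratios scaling. Il2ra, the high-affinity subunit of the IL-2 receptor, was 1.32, 0.808 and 1.16 FPKM in Lenv-Treg libraries, against 0.920, 0.732 and 0.712 FPKM in Ctrl-Treg libraries. Lenv-Treg replicates 1 and 3 lay above every Ctrl-Treg library and replicate 2 did not. Its log2 difference of 0.22 (SE 0.12) did not pass in limma (adjusted p = 0.159), while quantile normalization gave 0.48 with an adjusted p of 0.0159.

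**Figure D1:**
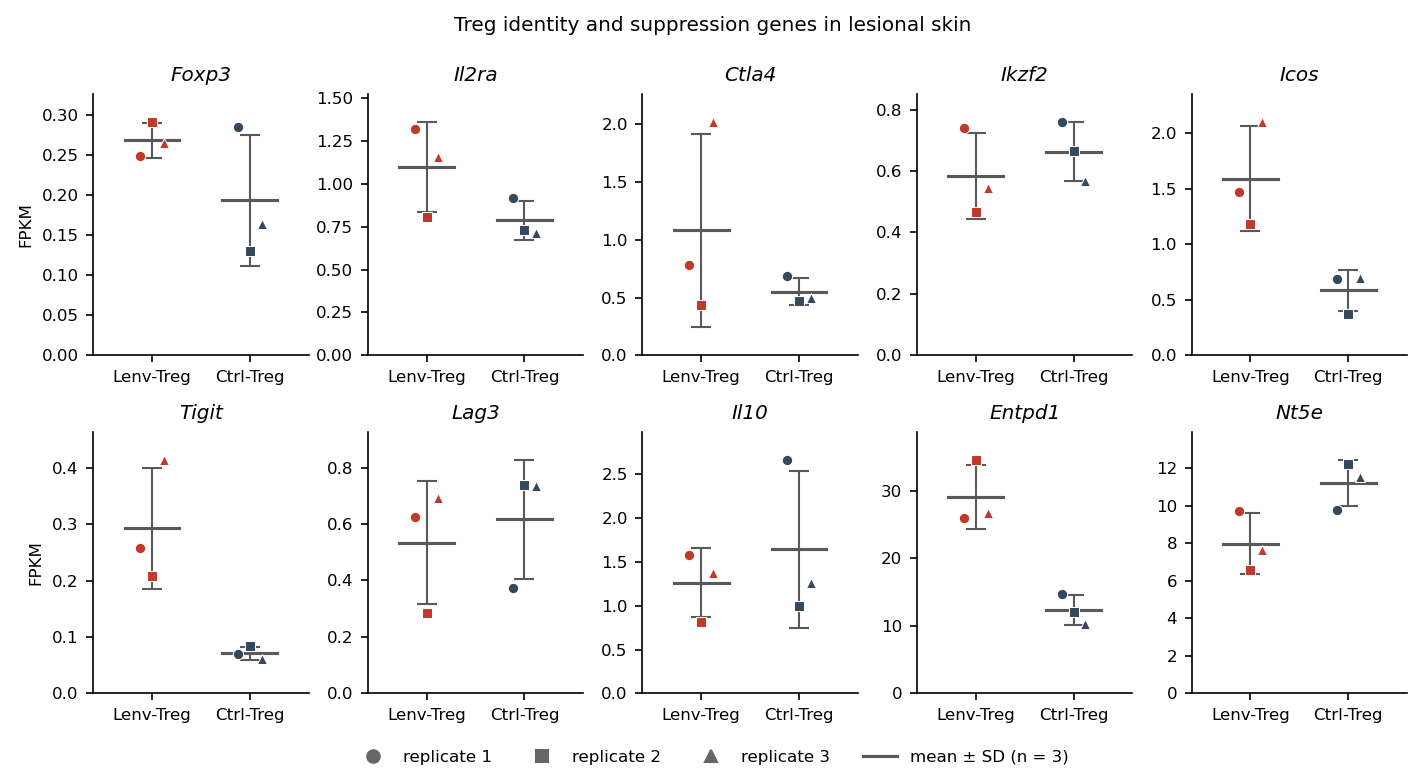
FPKM of the 10 members in each library, Lenv-Treg (red) to the left of Ctrl-Treg (dark blue); marker shapes are replicates, bars are means and SD with n = 3, and each panel has its own scale from 0. Icos, Tigit and Entpd1 show no overlap with higher Lenv-Treg values, Nt5e none with lower ones, and the other 6 genes overlap.

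Among the receptors of the CD28 and related families, Icos and Tigit separated the groups and Ctla4 and Lag3 did not. Icos, a costimulatory receptor induced on activated T cells and high on effector Tregs, measured 1.47, 1.18 and 2.10 FPKM in Lenv-Treg libraries, against 0.684, 0.372 and 0.693 FPKM in Ctrl-Treg libraries. The lowest Lenv-Treg library was thus above the highest Ctrl-Treg library, from 821 reads in Lenv-Treg and 298 in Ctrl-Treg. The mean was 2.72-fold higher (log2 difference 0.70, SE 0.15, limma adjusted p = 0.00949). The call held in all 16 alternatives, with adjusted p between 0.00374 and 0.0319.

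Tigit, an inhibitory receptor for the ligands CD155 (Pvr) and nectin-2, had 22, 18 and 35 reads in Lenv-Treg libraries and 6, 7 and 5 reads in Ctrl-Treg libraries. These correspond to 0.258, 0.209 and 0.414 FPKM in Lenv-Treg and 0.0698, 0.0836 and 0.0605 FPKM in Ctrl-Treg. All 3 Lenv-Treg libraries were above all 3 Ctrl-Treg libraries, as were those of 10.1% of all genes with a read. The ratio of read rates was 4.11, with an exact 95% interval of 2.43 to 7.30 for counting error only. The exact permutation test gave p = 0.1, the smallest possible. In limma without the filter Tigit passed (log2 difference 0.27, SE 0.06, adjusted p = 0.027; 21.7% of the genes were called there, 5.77% higher and 16.0% lower), and in voom on recovered reads of genes with at least 10 reads it passed as well (log2 difference 1.91, SE 0.51, adjusted p = 0.0183; 34.1% called, 8.73% higher and 25.4% lower).

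Ctla4, which removes the ligands CD80 and CD86 from antigen-presenting cells, depended on a single library. It measured 0.785, 0.431 and 2.02 FPKM in Lenv-Treg libraries, against 0.687, 0.466 and 0.496 FPKM in Ctrl-Treg libraries. Lenv-Treg replicate 3 held 171 reads, and Lenv-Treg replicate 2, with 37 reads, was the lowest of the 6 libraries. The log2 difference of 0.35 (SE 0.25, limma adjusted p = 0.287) became 0.05 without Lenv-Treg replicate 3. That library also had the highest Icos, Tigit and Lag3 values of its group. Lag3, an inhibitory receptor that binds MHC class II, was 0.624, 0.285 and 0.693 FPKM in Lenv-Treg libraries and 0.372, 0.739 and 0.735 FPKM in Ctrl-Treg libraries, with no call (log2 difference -0.08, SE 0.14, adjusted p = 0.697). Each group held both high and low Lag3 libraries.

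Il10, the anti-inflammatory cytokine gene of Tregs, macrophages and other cells, was spread widely within Ctrl-Treg. It was 1.58, 0.818 and 1.37 FPKM in Lenv-Treg libraries, against 2.66, 0.999 and 1.26 FPKM in Ctrl-Treg libraries. Ctrl-Treg replicate 1 was the highest library for Il10, and leaving it out turned the log2 difference to 0.07, against -0.19 (SE 0.24, limma adjusted p = 0.545) with all libraries. The same library was the highest of its group for 6 of the 10 members, Foxp3, Il2ra, Ctla4, Ikzf2, Il10 and Entpd1.

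The enzymes that turn extracellular ATP into adenosine moved in opposite directions. Entpd1 encodes CD39, which removes phosphates from ATP and ADP, and it was the member with the highest level. It measured 26.0, 34.6 and 26.7 FPKM in Lenv-Treg libraries, against 14.7, 12.0 and 10.3 FPKM in Ctrl-Treg libraries, with no overlap. Its mean rose 2.35-fold (log2 difference 1.17, SE 0.16, limma adjusted p = 0.00123), a call that held in all 16 alternatives. Nt5e encodes CD73, which converts AMP to adenosine, and it measured 9.72, 6.56 and 7.65 FPKM in Lenv-Treg libraries, against 9.78, 12.2 and 11.5 FPKM in Ctrl-Treg libraries. Lenv-Treg replicate 1 and Ctrl-Treg replicate 1 nearly met, so the groups were apart only by a small gap. The Nt5e difference was -0.45 (SE 0.15, limma adjusted p = 0.0441), and the call ended in several alternatives, among them median-of-ratios scaling (-0.26, adjusted p = 0.177), quantile normalization (-0.28, adjusted p = 0.145) and leaving out Lenv-Treg replicate 2 (-0.33, adjusted p = 0.14). It also ended without Lenv-Treg replicate 3, Ctrl-Treg replicate 2 or Ctrl-Treg replicate 3 (adjusted p of 0.11, 0.124 and 0.104).

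**Figure D2:**
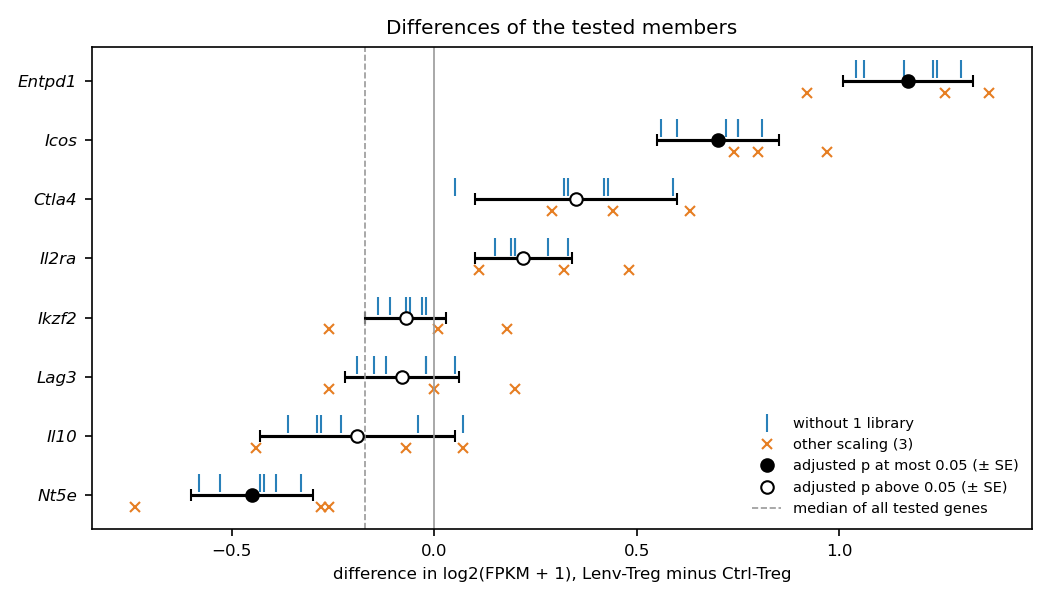
Difference in log2(FPKM + 1), Lenv-Treg minus Ctrl-Treg, for the 8 tested members (circles, with SE; filled where the adjusted p was at most 0.05), with values without 1 library (blue ticks), under 3 other scalings (orange crosses) and the median of all tested genes (dashed line, -0.17). Entpd1 and Icos stay to the right of 0 in all of these, Nt5e to the left, and Ikzf2, Lag3 and Il10 lie on both sides.

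In level, Entpd1 and Nt5e stood far above the other members in both groups. Mean FPKM in Lenv-Treg was 29.1 ± 4.80 for Entpd1 and 7.97 ± 1.61 for Nt5e, and the next gene was Icos at 1.59 ± 0.469 (SD, n = 3 each). In Ctrl-Treg, Entpd1 at 12.4 ± 2.21 and Nt5e at 11.2 ± 1.23 overlapped, and Il10 came next at 1.64 ± 0.892. From the third place down, the libraries of neighbouring genes overlapped in Lenv-Treg, so the order of Icos, Il10, Il2ra, Ctla4, Ikzf2, Lag3, Tigit and Foxp3 there is within the spread from one gene to the next. Icos ranked 3 of 10 in Lenv-Treg and 7 of 10 in Ctrl-Treg, where Tigit was the lowest member at 0.0713 ± 0.0117 FPKM.

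Because skin holds few T cells, the members were also set against T cell transcripts. The mean FPKM of Cd3e, Cd3d, Cd3g and Cd4, the 4 of 7 chosen genes that the table named, was 2.66, 2.14 and 3.48 in Lenv-Treg libraries, against 4.48, 2.82 and 3.66 in Ctrl-Treg libraries (exact permutation p = 0.2). Cd3g weighed most in it, at group means of 6.06 FPKM in Lenv-Treg and 8.92 FPKM in Ctrl-Treg. In the same order Cd3e was at 1.27 and 1.73 FPKM, Cd3d at 2.1 and 1.83 FPKM, and Cd4 at 1.6 and 2.15 FPKM. Relative to the mean of the 4 genes, Foxp3, Il2ra, Ctla4, Icos, Tigit and Entpd1 were each higher in all 3 Lenv-Treg libraries than in any Ctrl-Treg library. This was true of 17.3% of all tested genes, a set that leaves out Foxp3 and Tigit because they did not pass the filter. No member was lower in this way, against 8.63% of the tested genes. Exact permutation p was 0.1 for each of the 6, the smallest possible. The 10 ratios share 1 denominator and are not independent. Foxp3, Il2ra and Ctla4 overlapped between the groups in FPKM, so their separation here depended on the denominator, which was highest in Ctrl-Treg replicate 1. Cd3d, a part of it, was 1.49, 1.76 and 3.04 FPKM in Lenv-Treg libraries, against 2.15, 1.13 and 2.20 FPKM in Ctrl-Treg libraries. Of the 4 genes only Cd3e was also tried alone as the denominator.

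The ratio of Icos varied little within groups, at 0.555, 0.553 and 0.604 in Lenv-Treg libraries, against 0.153, 0.132 and 0.189 in Ctrl-Treg libraries. For Tigit it was 0.0970, 0.0978 and 0.119 in Lenv-Treg libraries and 0.0156, 0.0296 and 0.0165 in Ctrl-Treg libraries. The groups were far apart for both genes, with log2 ratio differences of 1.87 for Icos and 2.40 for Tigit, beside 0.20 for the median of all tested genes. The Foxp3 ratio was 0.0935, 0.136 and 0.0757 in Lenv-Treg libraries and 0.0636, 0.0460 and 0.0449 in Ctrl-Treg libraries, a log2 ratio difference of 0.96 that lay between 0.73 and 1.15 when 1 library was left out. It rests on 20 to 46 reads of Foxp3 per library. For Il2ra and Ctla4 the log2 ratio differences were 0.87 and 1.11, and for Ikzf2, Lag3, Il10 and Nt5e, whose ratios overlapped, they were 0.21, 0.17, 0.10 and -0.09. The Entpd1 ratio was 9.79, 16.2 and 7.67 in Lenv-Treg libraries and 3.29, 4.27 and 2.82 in Ctrl-Treg libraries, a log2 ratio difference of 1.65. Other cells express members too, Entpd1 and Nt5e among them, so these ratios are not levels per T cell.

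**Figure D3:**
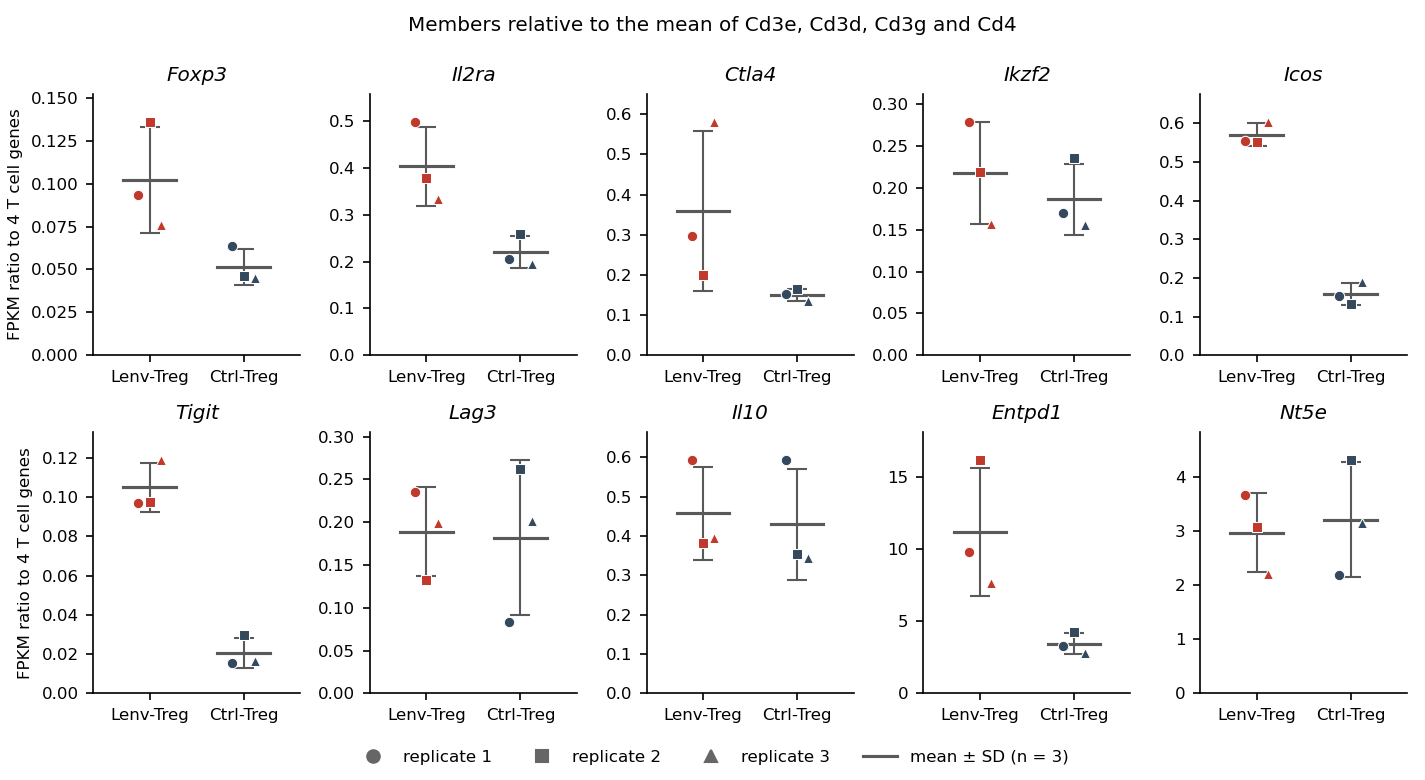
FPKM of each member divided by the mean FPKM of Cd3e, Cd3d, Cd3g and Cd4 in the same library, Lenv-Treg (red) to the left of Ctrl-Treg (dark blue); bars are means and SD with n = 3. Foxp3, Il2ra, Ctla4, Icos, Tigit and Entpd1 are higher in every Lenv-Treg library than in any Ctrl-Treg library, and Ikzf2, Lag3, Il10 and Nt5e overlap.

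Markers of other cells that express members moved in the same libraries, and their part in the members' differences was not tested. Over all tested genes 11.0% rose and 30.8% fell (median -0.17), and the counts of each marker list below stand beside these shares. Of 9 tested T cell markers 1 rose and 2 fell (median -0.22, near that of all tested genes). The summed FPKM over the 13 T cell markers named in the table ran from 14.6 to 21.2 in Lenv-Treg and from 19.5 to 27.8 in Ctrl-Treg. Cd2 and Lck, a T cell adhesion receptor and a proximal kinase of the T cell receptor, fell by 0.65 and 0.67, and Cd5, an inhibitory T cell surface receptor, rose by 0.51 (these 3, and the marker genes named below, were chosen after their values were seen). Of 13 macrophage and monocyte markers, relevant to Entpd1 and Il10, 8 rose and 1 fell (median 0.75), with sums of 3840 to 4320 FPKM in Lenv-Treg and 2420 to 3100 FPKM in Ctrl-Treg. Within that list Mrc1, the mannose receptor gene, rose by 1.31, Adgre1, which encodes F4/80, fell by 0.84 (61.3 FPKM in Lenv-Treg, 112 FPKM in Ctrl-Treg, adjusted p = 0.0154), and the complement genes C1qa, C1qb and C1qc were not called (adjusted p of 0.261, 0.147 and 0.124). Of 7 endothelial markers, also relevant to Entpd1, 2 rose and 0 fell (sums of 130 to 162 FPKM in Lenv-Treg and 77.2 to 122 FPKM in Ctrl-Treg).

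Fibroblast markers, relevant to Nt5e, were lower or not called. Of 7 markers 0 rose and 4 fell (median -0.65). Their sums were 2440 to 3460 FPKM in Lenv-Treg and 4540 to 5710 FPKM in Ctrl-Treg. The 4 lower genes were the collagen genes Col1a1, Col1a2 and Col3a1, by 1.96, 1.82 and 0.65, and Thy1, by 1.04. Pdgfra (0.15), Dcn (0.19) and Lum (-0.17) were not called (limma adjusted p of 0.579, 0.449 and 0.376). Of 6 tested natural killer markers, relevant to Tigit and Lag3, 0 rose and 2 fell, with sums of 8.61 to 15.6 FPKM in Lenv-Treg and 13.2 to 19.2 FPKM in Ctrl-Treg. Langerhans cell markers, relevant to Entpd1, had 0 of 3 higher and 2 lower, with sums of 90.1 to 117 FPKM in Lenv-Treg and 121 to 158 FPKM in Ctrl-Treg. No marker of these lists that the table named was at 0 in all 6 libraries.

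Beyond the members, 6 lists of genes that act with them were counted in the same fit, and over these lists 23 genes rose and 18 fell. The count of each list stands beside the shares over all tested genes, of which 11.0% rose and 30.8% fell (median -0.17). In the list of 22 further Treg-associated genes, 16 were tested, of which 6 rose and 2 fell (median 0.28, or 0.42 after median-of-ratios scaling and 0.03 after rescaling to TPM). With TPM the count higher was 2 and not 6, where 947 and not 1532 of all 13945 tested genes rose. The list's count was also 2 without Ctrl-Treg replicate 2, Lenv-Treg replicate 2 or Lenv-Treg replicate 3. Areg, an EGF receptor ligand that Tregs and keratinocytes make, measured 23.4, 23.3 and 38.5 FPKM in Lenv-Treg libraries, against 2.92, 4.41 and 3.64 FPKM in Ctrl-Treg libraries (log2 difference 2.63, adjusted p = 0.000159). Prdm1, which encodes the factor BLIMP-1, rose by 0.51 (adjusted p = 0.00891; 0.0972 after rescaling to TPM). Batf, an AP-1 family factor of effector Tregs, rose by 0.78 (adjusted p = 0.0299), a call lost with TPM and without Ctrl-Treg replicate 2, Lenv-Treg replicate 2 or Lenv-Treg replicate 3 (highest adjusted p 0.0949). Ebi3, a subunit of IL-35 and IL-27, fell by 0.87, and Fgl2, a secreted suppressive protein also made by macrophages, fell by 0.65 (adjusted p = 0.01; 0.0612 after median-of-ratios scaling). Tgfb1, the TGF-beta 1 gene, was 40.3 ± 2.37 FPKM in Lenv-Treg and 31.2 ± 6.03 FPKM in Ctrl-Treg without a call (0.37, adjusted p = 0.0687); it was called after median-of-ratios scaling (adjusted p = 0.0244) and without Ctrl-Treg replicate 1 (adjusted p = 0.0157). Capg, an actin-capping protein gene and the list's highest, rose by 0.68, but lost its call after rescaling to TPM and without Ctrl-Treg replicate 1, Ctrl-Treg replicate 2, Lenv-Treg replicate 2 or Lenv-Treg replicate 3 (adjusted p up to 0.103).

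The IL-2 pathway around Il2ra held few calls. Of 10 tested genes 1 rose and 1 fell (median 0.03), and a second gene passed in one direction or the other without Ctrl-Treg replicate 1, Ctrl-Treg replicate 2 or Lenv-Treg replicate 3. Il2 itself, the T cell growth factor gene, had 1 read over the Lenv-Treg libraries and 2 over the Ctrl-Treg libraries. Il2rg, the receptor subunit shared with other cytokines, rose by 0.57 (adjusted p = 0.00872; 0.0839 after rescaling to TPM). Il2rb, the subunit shared with the IL-15 receptor, was 1.69 ± 0.540 FPKM in Lenv-Treg and 1.66 ± 0.684 FPKM in Ctrl-Treg (adjusted p = 0.928). The survival gene Bcl2 fell by 0.85 (adjusted p = 0.00137). Jak1, the kinase with the highest level in this list, was not called (0.37, adjusted p = 0.0574), but was called after median-of-ratios scaling (0.58, adjusted p = 0.017), with the replicate block (adjusted p = 0.0261) and without Ctrl-Treg replicate 1 or Lenv-Treg replicate 3 (adjusted p of 0.032 and 0.0395).

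Of 8 tested ligands and partners of the receptors, 3 rose and 1 fell (median 0.36, or 0.56 after median-of-ratios scaling and 0.08 after rescaling to TPM). Cd80, a ligand of CTLA-4, was 1.77, 2.38 and 2.40 FPKM in Lenv-Treg libraries, against 0.682, 0.694 and 0.461 FPKM in Ctrl-Treg libraries (log2 difference 0.98, adjusted p = 0.00078). The other CTLA-4 ligand gene, Cd86, was not called (0.25, adjusted p = 0.103), but was called after median-of-ratios scaling and quantile normalization (0.44 in both, adjusted p of 0.0137 and 0.0116). Pvr, the TIGIT ligand CD155, rose by 0.61, and Fgl1, a ligand of LAG-3 with 150 reads over Lenv-Treg and 27 over Ctrl-Treg, rose by 0.73 (adjusted p = 0.0023). Fgl1 passed the filter only through the Lenv-Treg libraries, where it is high; without the filter its adjusted p was 0.00719. Cd226, the activating receptor that shares ligands with TIGIT, fell: it measured 0.284, 0.338 and 0.234 FPKM in Lenv-Treg libraries, against 0.850, 0.673 and 1.18 FPKM in Ctrl-Treg libraries (-0.56, adjusted p = 0.00741; -0.28 and 0.101 after quantile normalization). Cd226 passed the filter only through the Ctrl-Treg libraries, and its adjusted p was 0.0164 without the filter. The counts of 3 and 1 thus each include a gene that its high group brought into the test. Lgals3, the list's most abundant gene and a LAG-3 partner, was not called (0.47, adjusted p = 0.101), but was called after median-of-ratios scaling (0.68, adjusted p = 0.0452).

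Genes of the IL-10 receptor pathway had the highest median of the 6 lists, while Il10 itself was not called. Of 10 tested genes 7 rose and 0 fell (median 0.63, or 0.82 after median-of-ratios scaling). After rescaling to TPM 4 rose and 2 fell, where 947 of all 13945 tested genes rose and 7970 fell. Socs3, a feedback inhibitor of cytokine signalling, measured 54.8, 41.4 and 70.5 FPKM in Lenv-Treg libraries, against 19.9, 12.0 and 10.8 FPKM in Ctrl-Treg libraries (1.91, adjusted p = 0.00126). Stat3, which transmits signals of IL-10 and of IL-6 family and other cytokines, rose by 0.76, and Sbno2, a corepressor induced by IL-10 in macrophages, by 1.08. Il10ra, the ligand-binding receptor subunit, rose by 0.61 (adjusted p = 0.0196), a call that ended without Ctrl-Treg replicate 2, Ctrl-Treg replicate 3 or Lenv-Treg replicate 3 (highest adjusted p 0.0656) and with TPM in place of FPKM (adjusted p = 0.11). These genes also respond to other cytokines, and macrophage markers rose in the same libraries, as given above.

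The genes of extracellular ATP and adenosine around Entpd1 and Nt5e moved in both directions. Of 16 tested, 6 rose and 3 fell (median 0.03), where 11.0% of all tested genes rose and 30.8% fell (median -0.17). After rescaling to TPM 3 rose and 5 fell, where 947 of all 13945 tested genes rose and 7970 fell. Cd38, an NAD-consuming ectoenzyme, measured 20.7, 24.2 and 21.3 FPKM in Lenv-Treg libraries, against 3.63, 3.52 and 2.94 FPKM in Ctrl-Treg libraries (2.40, adjusted p = 2.39e-05). Ada, which deaminates adenosine, rose by 0.85, and Entpd3, another ATP-degrading ectoenzyme, by 0.99. Entpd2, a relative of Entpd1 that prefers ATP, fell by 0.68, Adk, which phosphorylates adenosine inside cells, by 0.67, and the nucleoside transporter gene Slc29a1 by 0.36, a call that ended after median-of-ratios scaling (-0.16, adjusted p = 0.212), after quantile normalization and without Ctrl-Treg replicate 1, Ctrl-Treg replicate 2, Lenv-Treg replicate 2 or Lenv-Treg replicate 3 (adjusted p up to 0.0794). Pnp, a purine nucleoside phosphorylase and the most abundant gene of the list, was not called (0.04, adjusted p = 0.858).

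Genes that cooperate with FOXP3 or control its expression were lower or not called. Of 21 tested genes 0 rose and 11 fell, where 11.0% of all tested genes rose and 30.8% fell. The list's median was -0.39, beside -0.17 for all tested genes. After median-of-ratios scaling it was -0.18 with 8 genes lower, beside 0.00 for all 13945 tested genes, of which 2417 were lower. After rescaling to TPM it was -0.68 with 16 lower, beside -0.44 for all tested genes, of which 7970 were lower. Lef1, a TCF family factor, measured 0.116, 0.176 and 0.134 FPKM in Lenv-Treg libraries, against 4.02, 8.32 and 7.97 FPKM in Ctrl-Treg libraries (-2.71, adjusted p = 0.000183). Bach2, a repressor that holds back effector programmes in T cells, was 0.0551, 0.0483 and 0.0276 FPKM in Lenv-Treg libraries, against 0.788, 0.818 and 0.778 FPKM in Ctrl-Treg libraries (-0.78, adjusted p = 0.000305). Lef1 and Bach2 passed the filter only through Ctrl-Treg, where they are high, so they could enter the count of 11 only as lower; without the filter their adjusted p was 0.00247 and 0.000653. Uhrf1, which guides maintenance DNA methylation, fell by 1.40, and Stub1, a ubiquitin ligase and the list's most abundant gene, was not called (-0.09, adjusted p = 0.54), but was called lower after rescaling to TPM (-0.38, adjusted p = 0.00841) and had the opposite sign after median-of-ratios scaling (0.12, adjusted p = 0.469). Skin epithelium also expresses Lef1 and Uhrf1. The keratinocyte markers did not move one way in the same libraries: the basal keratins Krt14 and Krt5 rose by 2.54 and 0.91, Krt15, of the hair follicle and basal layer, fell by 3.72, Krt10, of the suprabasal layers, fell (180 FPKM in Lenv-Treg, 390 FPKM in Ctrl-Treg, adjusted p = 0.0419), and Krt1 and Trp63 were not called (adjusted p of 0.99 and 0.38). Their part was not tested.

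**Figure D4:**
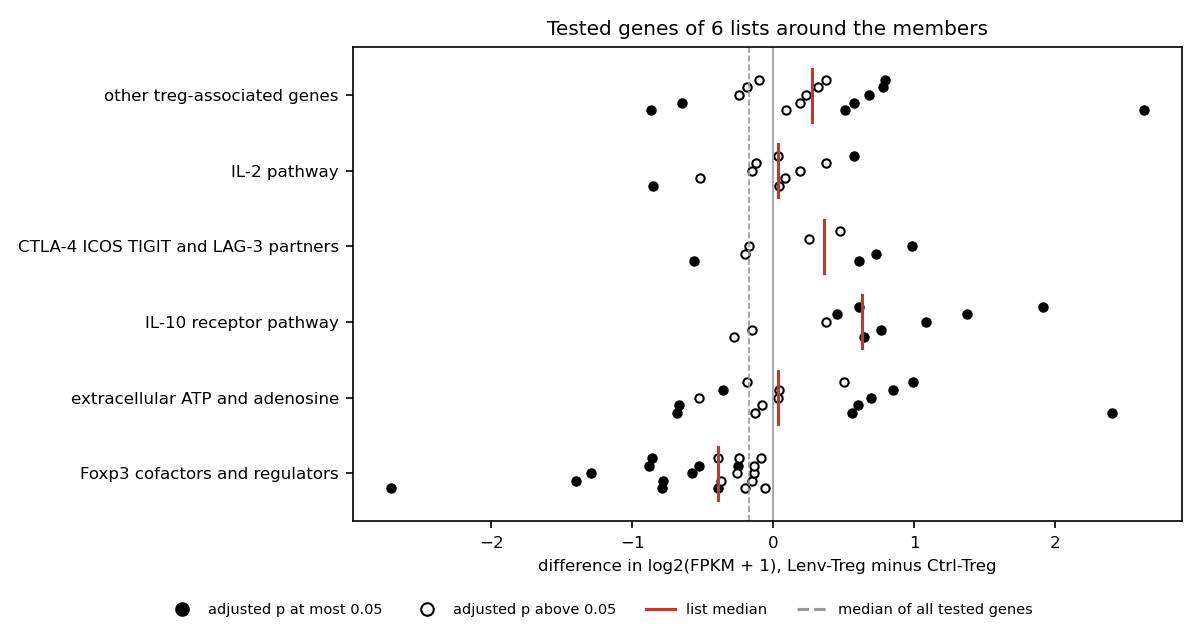
Difference in log2(FPKM + 1), Lenv-Treg minus Ctrl-Treg, of every tested gene in the 6 lists (filled where the adjusted p was at most 0.05); red bars are list medians and the dashed line is the median of all tested genes, -0.17. The IL-10 receptor pathway has the highest list median, 0.63, and the list of Foxp3 cofactors and regulators the lowest, -0.39.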

How the data were processed

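The series holds 6 RNA-seq libraries of skin. The authors deposited 1 table of FPKM per gene symbol, made on genome build GRCm39 per the submitters' processing notes; the sources used here do not give aligner, counter or annotation, and no count of reads was used as deposited. Per the labels' protocols, total RNA came from a TRIzol extraction. Samples were grouped by their treatment label.

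Groups were compared two-sided on log2(FPKM + 1) with limma 3.58.1 (R 4.3.3, eBayes with a trend, no covariate). Genes entered when 3 or more samples reached an FPKM of 0.5, with Benjamini-Hochberg adjustment over all of them and a threshold of 0.05. The pseudocount understates changes of low genes. Members outside the filter were tested by an exact permutation test (scipy 1.17.1).

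Low FPKM values are whole multiples of the worth of 1 read, which gave depth and reads. Of 7428 genes with both a reference length and a step of 1 read, 419 matched that length. All 13945 genes passing the filter were whole in all 6 samples (tolerance 0.005 reads plus 1.5e-07 per read). Reads of each library summed to 99.7% to 99.73% of its depth. Intervals cover counting error only.

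The members and lists were chosen with earlier results of these data known. All 10 members were named. Of each other list the text names up to 3 called genes per direction with the smallest p and the gene with the highest mean, plus Tgfb1, Il2, Il2rb, Cd3e, Cd4, Cd80, Cd86 and Il10ra; Trac, Trbc1 and Trbc2 were not used here. Lists are described by counts, without a set test. Markers of gamma delta T cells, B cells, dendritic cells, neutrophils, mast cells and keratinocytes were also counted. In that order 0 of 2, 0 of 1, 0 of 6, 7 of 7, 2 of 7 and 2 of 6 tested genes rose. In the same order 1, 0, 1, 0, 1 and 2 fell, where 11.0% of all tested genes rose and 30.8% fell. The dendritic cell gene that fell, Xcr1, passed the filter only through Ctrl-Treg. On simulated data for this comparison (13945 genes), 50 genes were altered at each size. Log2 changes of 0.5, 1, 2 and 4 were called in 2%, 62%, 90% and 94% of the altered genes, and 6.06% of the calls were false. Far fewer genes were altered there than the 41.7% called in the data. The adjustment was stricter for that reason, so these shares do not carry over to the data. Alternatives were the pseudocount (0.1, 0.5), the filter, scaling, voom on recovered reads, the title's replicate number as a block, and leaving out each library.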

Additional observations from a re-analysis of the deposited data

How the results depend on the processing

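Icos and Entpd1 stayed higher and past the threshold in all 16 alternatives, with log2 differences of 0.56 to 1.45 and 0.92 to 1.37. The count of members lower, 1 (Nt5e), was 0 without a filter on low values, after median-of-ratios scaling, after quantile normalization and with the replicate number as a block; it lay between 0 and 1 without 1 library. Titles of the groups share replicate numbers, but the deviations of same-numbered libraries correlated at 0.196, -0.0109 and 0.328, so the numbers were not taken as pairs; with the replicate block Nt5e had an adjusted p of 0.0755, 2 members were called higher, and over all tested genes 1637 were higher and 4270 lower, against 1532 and 4289. Over the 6 lists together, rescaling to TPM gave 12 genes higher and 32 lower, against 23 and 18. Over all 13945 tested genes the same rescaling gave 947 higher and 7970 lower, against 1532 and 4289. Leaving out 1 library gave 17 to 24 higher and 14 to 18 lower in the lists. Over all tested genes it gave 1152 to 1447 higher and 2780 to 3900 lower.

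Signs turned only for values without a call. Quantile normalization gave 0.18 for Ikzf2, 0.20 for Lag3, 0.07 for Il10, 0.01 for Cd3e and 0.05 for Cd4. Median-of-ratios scaling gave 0.01 for Ikzf2 and 0.12 for Stub1, and rescaling to TPM gave -0.25 for Pnp, -0.18 for Il2rb and -0.01 for Cd86. Leaving out 1 library gave ranges of -0.19 to 0.05 for Lag3, -0.36 to 0.07 for Il10, -0.07 to 0.15 for Pnp, -0.08 to 0.23 for Il2rb and -0.42 to 0.05 for Cd4. Relative to T cell genes the ranges were -0.32 to 0.51 for Lag3, -0.10 to 0.36 for Il10 and -0.34 to 0.15 for Nt5e. Of 44 named genes, 21 kept direction and side of the threshold in every alternative run. Foxp3 is among these 21. For Foxp3 and Tigit no test was made after TPM or median-of-ratios scaling or without 1 library. In those runs only their direction could change. The voom fit of genes with 10 reads or more was chosen after seeing the data. Foxp3 and Tigit rest on 5 to 46 reads per library, which limits what can be seen of them.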
